A study of Homo sapiens with 9 samples.

Results

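The CLK, SRPK and DYRK kinases that act on splicing factors were described here as 7 genes, CLK1, CLK2, CLK3, CLK4, SRPK1, SRPK2 and DYRK1A, among the 60708 genes of the count table. They were chosen by name: each is the row whose Ensembl identifier maps to that symbol. All 7 were found and all 7 were among the 20812 genes with enough counts to be tested. The cells were MDA-MB-231, an established human line from a triple-negative breast cancer. A first group of 3 libraries came from cells given the vehicle DMSO. The PdB group of 3 libraries came from cells given 10 nM pladienolide B for 16 h, and the recovery group of 3 libraries from cells collected 24 h after that treatment. Pladienolide B blocks splicing by binding SF3B1, a protein of the U2 snRNP that helps to select the branch point of introns. The labels name no genotype or other agent, they do not say how long the DMSO cells were kept, and they do not say whether the 3 libraries of a group came from separate cultures. The p-values therefore measure only the spread between these libraries, which may be technical. RNA was polyadenylated RNA of whole cultures.

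SR proteins are splicing factors with a tail rich in arginine and serine, the RS domain, and they work only when that tail is phosphorylated to the right degree. The SRPKs, found mostly in the cytoplasm, phosphorylate the RS domain so that the importer TNPO3 can carry SR proteins into the nucleus. The CLKs, found in the nucleus, add further phosphates and release SR proteins from nuclear speckles to sites of transcription. CLK1 and CLK4 transcripts are themselves regulated by splicing, with retained introns and a skipped exon that leave no active kinase. DYRK1A, a dosage-sensitive kinase of chromosome 21 that activates itself on a tyrosine, phosphorylates several splicing factors as well as cell cycle and signalling proteins.

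The 4 CLK genes carry a stretch that codes for the LAMMER motif, after which the kinase family is named, or in CLK3 for a variant of it. It is shown because gene counts can follow 4 such similar genes only as far as reads tell them apart. The 42 coding bases were taken 5′ to 3′ from the GENCODE 29 transcripts, and the capitals mark the 18 bases at the motif's position.
CLK1: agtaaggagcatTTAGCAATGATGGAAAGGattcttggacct
CLK2: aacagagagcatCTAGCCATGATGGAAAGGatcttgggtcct
CLK3: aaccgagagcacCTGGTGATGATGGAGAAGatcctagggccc
CLK4: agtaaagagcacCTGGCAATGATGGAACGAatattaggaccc

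CLK1 and CLK2 were identical at 16 of the 18 motif bases and at 32 of the 42 bases shown. CLK1 and CLK4, the closest pair over the whole coding sequence, were also identical at 32 of the 42 bases, with 14 in the motif. Over the coding sequence 77.7% of the bases of the shorter gene were identical between CLK1 and CLK4, with a longest identical run of 34 bases. The other close pairs were CLK2 and CLK3 at 71.3% with a longest run of 17, and SRPK1 and SRPK2 at 69.0% with a longest run of 23. No stretch of 50 bases was shared between any of the 7 genes. The shares of each gene's 50-base stretches found in other genes, on either strand, ran from 0.109% for CLK1 to 6.32% for CLK3. Of the 1327 such stretches of CLK3, 606 were shared with EDC3 and 430 with AC100835.2. Both lie opposite CLK3 at its own place in the genome, so these are overlaps and not similar genes.

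The genes lie on 7 chromosomes of GRCh38. CLK1 (ENSG00000013441.16) occupies chr2:200853009-200864744 on the minus strand and CLK4 (ENSG00000113240.13) chr5:178602664-178630615 on the minus strand. CLK2 (ENSG00000176444.19) occupies chr1:155262868-155278491 on the minus strand and CLK3 (ENSG00000179335.20) chr15:74598500-74645414 on the plus strand. SRPK1 (ENSG00000096063.16) occupies chr6:35832966-35921342 on the minus strand, SRPK2 (ENSG00000135250.17) chr7:105110704-105399308 on the minus strand, and DYRK1A (ENSG00000157540.22) chr21:37365573-37526358 on the plus strand. The longest coding transcript had 12 introns in each CLK gene, 15 in SRPK1, 14 in SRPK2 and 10 in DYRK1A. The spans differed more, from 11.7 kb for CLK1 to 289 kb for SRPK2. Of the annotated transcripts, 10 of 15 of CLK1 and 10 of 15 of CLK4 are of the retained-intron or nonsense-mediated-decay type, against 11 of 27 for CLK3, 6 of 13 for SRPK1, 4 of 15 for SRPK2, 4 of 24 for DYRK1A and 0 of 7 for CLK2. The deposited values are counts per gene, so spliced and intron-retaining transcripts of one gene cannot be told apart in them.

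Total counts ran from 56389689 to 67047079 per library. The MDA-MB-231 markers VIM, CD44, KRT18, AXL and EGFR were all high, with mean CPM (counts per 1000000 of the TMM-scaled library total) between 125 for EGFR under PdB and 2870 for VIM in DMSO. ESR1, the oestrogen receptor gene, was at 0 in all 9 libraries and PGR did not exceed a mean of 0.0251 CPM. The leukocyte markers PTPRC, CD3E and CD14 and the endothelial markers PECAM1, VWF and CDH5 had group means of at most 1.01 CPM. Of the luminal epithelial markers, ESRP1 stayed at or below a mean of 0.205 CPM and CDH1 at or below 1.28, while EPCAM had means of 5.29, 5.71 and 2.41 CPM and GATA3 13.4, 45.9 and 22.5 CPM in DMSO, PdB and recovery. The part of GATA3 and EPCAM in the kinase results was not tested.

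To see how the kinase transcripts stood at the end of the splicing block, PdB was compared with DMSO. Transcripts of the 4 CLK genes and DYRK1A rose by 1.67-fold to 3.47-fold and those of the 2 SRPK genes fell. All 7 genes thus passed the edgeR quasi-likelihood test at an adjusted p under 0.05, 5 of them higher and 2 lower, and in all 7 the libraries of the 2 groups did not overlap. Changes were common among all genes: 70.0% of those tested passed, 31.9% higher and 38.1% lower, and 72.5% did not overlap between the groups. The median log2 change of the 7 genes was 1.19, beside -0.11 for all genes tested. All CPM values are scaled by TMM to the library's total, so less RNA per cell, fewer cells and a lower share of one transcript cannot be told apart. The same 3 DMSO libraries serve both comparisons with DMSO.

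**Figure D1:**
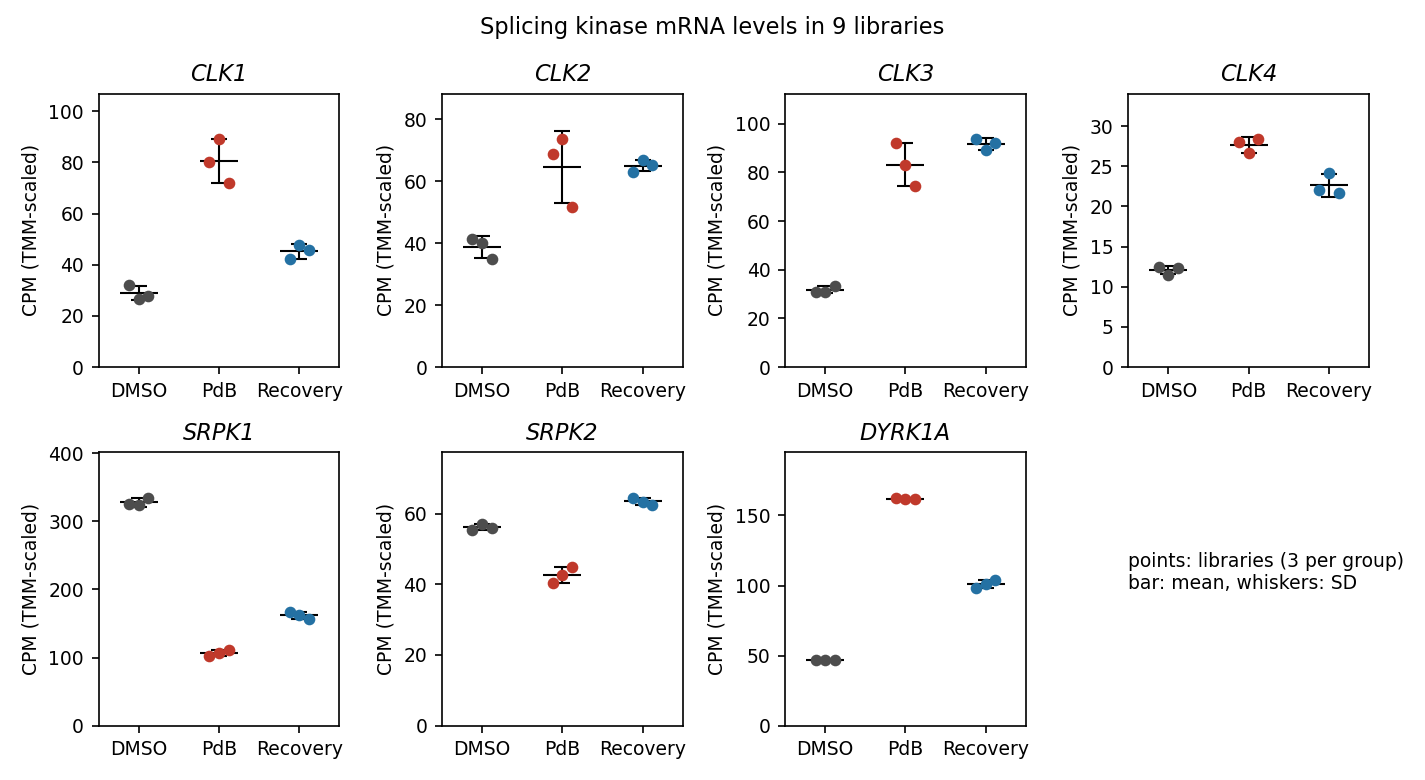
Level of each of the 7 kinase genes in CPM (vertical axes from 0, scaled per gene) in the 3 DMSO, 3 PdB and 3 recovery libraries; points are libraries, the bar is the group mean and the whiskers the SD. The 4 CLK genes and DYRK1A sit higher under PdB than in DMSO, SRPK1 and SRPK2 lower, and SRPK2 is the gene whose recovery libraries lie above DMSO after lying below it under PdB.

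DYRK1A showed the largest rise of the 7. It had 46.7, 46.8 and 46.8 CPM in the DMSO libraries, 163, 161 and 162 under PdB and 98.5, 101 and 104 at recovery. The 3 groups lay far apart, with recovery between DMSO and PdB. The log2 change under PdB was 1.79 ± 0.048 (SE; adjusted p = 1.8e-17, edgeR), a 3.47-fold rise that 21.2% of the genes tested exceeded in size. At recovery DYRK1A remained 1.11 ± 0.048 above DMSO on the log2 scale and had fallen by 0.68 ± 0.047 from PdB.

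CLK1, a nuclear kinase that releases SR proteins from speckles, had 32.0, 26.8 and 27.8 CPM in DMSO, 80.1, 89.1 and 71.9 under PdB and 42.1, 47.7 and 45.9 at recovery. Again no 2 groups overlapped. The rise under PdB was 1.48 ± 0.082 on the log2 scale (adjusted p = 1.5e-12, edgeR). At recovery CLK1 was 0.65 ± 0.082 above DMSO (adjusted p = 7.0e-07) and 0.83 ± 0.080 below PdB on the same scale. CLK4, the least abundant of the CLK genes by CPM, moved in the same order with a smaller return. Its libraries had 12.4, 11.5 and 12.3 CPM in DMSO, 28.0, 26.6 and 28.4 under PdB, and 22, 24.2 and 21.6 at recovery. CLK4 rose by 1.19 ± 0.083 under PdB, stood 0.90 ± 0.083 above DMSO at recovery, and fell by 0.29 ± 0.081 from PdB to recovery (adjusted p = 0.0037, edgeR). That last difference was -0.02 with library totals in place of TMM (adjusted p = 0.82).

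CLK3 rose and stayed up. Its libraries had 30.8, 30.9 and 33.3 CPM in DMSO, 91.8, 83.2 and 74.5 under PdB and 93.6, 89.0 and 92.1 at recovery. The PdB and recovery libraries overlapped, and both lay well above DMSO. The log2 change was 1.39 ± 0.068 under PdB and 1.53 ± 0.068 at recovery against DMSO (adjusted p = 1.8e-13 and 1.2e-13, edgeR). Between recovery and PdB it was 0.14 ± 0.066 (adjusted p = 0.071), and without PdB replicate 1, which held the highest CLK3 level of that group, it was 0.22 (adjusted p = 0.0071). CLK2, a kinase also known for insulin-regulated gene control in liver, gave the smallest rise of the CLK genes. CLK2 had 41.3, 40.2 and 34.8 CPM in DMSO, 68.8, 73.6 and 51.6 under PdB, and 63.1, 66.7 and 65.4 at recovery. The PdB libraries were the most spread, with replicate 3 lowest, and the recovery libraries fell inside their range. CLK2 rose by 0.74 ± 0.11 under PdB (adjusted p = 2.0e-05, edgeR) and stood 0.75 ± 0.11 above DMSO at recovery (adjusted p = 2.3e-05). The difference between recovery and PdB was 0.0083 ± 0.11 (adjusted p = 0.95), and -0.13 without PdB replicate 3 (adjusted p = 0.11).

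SRPK1, the cytoplasmic SR protein kinase that is often high in tumours, was the most abundant of the 7 in DMSO and fell the most. Its libraries had 325, 323 and 335 CPM in DMSO, 102, 107 and 111 under PdB and 166, 162 and 157 at recovery. The 3 groups did not overlap, and recovery lay nearer to PdB than to DMSO. The log2 change was -1.62 ± 0.047 under PdB (adjusted p = 5.8e-17, edgeR) and -1.02 ± 0.047 at recovery against DMSO (adjusted p = 1.7e-13). From PdB to recovery SRPK1 rose by 0.60 ± 0.047.

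SRPK2, the related kinase prominent in the nervous system, fell less and then passed its DMSO level. It had 55.5, 57.0 and 56 CPM in DMSO, 40.3, 42.7 and 44.9 under PdB and 64.5, 63.4 and 62.4 at recovery. Each group lay apart from the others, with PdB lowest and recovery highest. The log2 change was -0.40 ± 0.058 under PdB (adjusted p = 3.7e-06, edgeR), 0.18 ± 0.057 at recovery against DMSO (adjusted p = 0.012) and 0.57 ± 0.058 from PdB to recovery (adjusted p = 2.2e-08). SRPK2 was thus the only one of the 7 to be called on opposite sides of DMSO at the end of treatment and at recovery.

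**Figure D2:**
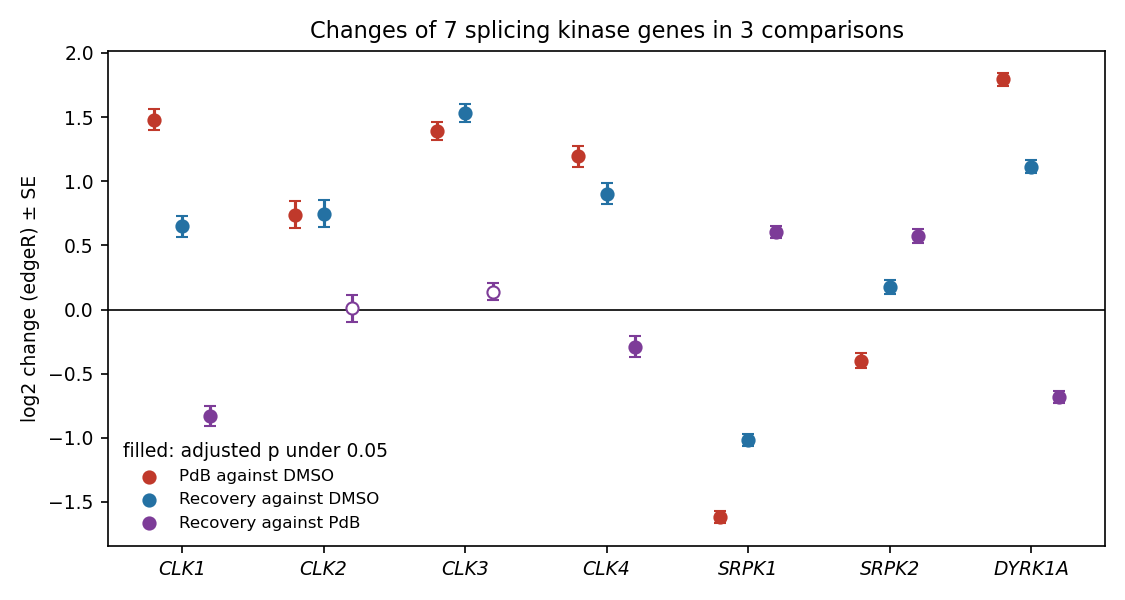
Fitted log2 change of each of the 7 genes (vertical axis, edgeR) for PdB and for recovery, each against DMSO, and for recovery set against PdB; whiskers are the SE and filled points have an adjusted p under 0.05. SRPK1 is the lowest point in both comparisons with DMSO, at -1.62 and -1.02, and the open points are CLK2 and CLK3 between recovery and PdB.

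Against DMSO, 6 of the 7 genes were called higher at recovery and 1, SRPK1, lower, and the libraries of all 7 did not overlap. Among all genes tested 61.2% passed in this comparison, 30.7% higher and 30.5% lower, and 70.4% did not overlap. The median log2 change of the 7 genes was 0.75, beside 0.03 for all genes. Between PdB and recovery 2 of the 7, SRPK1 and SRPK2, were called higher, 3, CLK1, CLK4 and DYRK1A, lower, and CLK2 and CLK3 did not pass. Here 66.1% of all genes passed, 34.6% higher and 31.5% lower, and 70.5% did not overlap, against 5 of the 7. With library totals in place of TMM the split of all genes between recovery and PdB was 8841 higher and 4863 lower, against 7199 and 6549 with TMM. The median of all genes then moved from 0.06 to 0.33, and 4 of the 7 were called higher, with CLK2 at 0.28 (adjusted p = 0.017) and CLK3 at 0.41 (adjusted p = 8.6e-06). Relative to the median of all genes CLK2 stood at -0.05 with either scaling and CLK3 at 0.08 with either. A change of scaling shifts all genes nearly alike, so this agreement was fixed in advance and is no check on CLK2 or CLK3.

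With TMM scaling the sum of the 7 genes hardly moved while its make-up did. Together they held 542 ± 4.88 CPM in DMSO, 567 ± 20.3 under PdB and 551 ± 3.15 at recovery (mean ± SD, n = 3). This sum depends on the scaling, unlike the shares within a library. Without TMM, the part of the library total was lower in every PdB library than in every DMSO library, and highest at recovery. In replicate 1 it was 37120 of 66111833 counts in DMSO, 32441 of 64022867 under PdB and 34307 of 57799058 at recovery. The 4 CLK genes summed to 111 ± 4.48 CPM in DMSO, 256 ± 25.6 under PdB and 224 ± 3.48 at recovery. SRPK1 and SRPK2 summed to 384 ± 6.06, 149 ± 6.71 and 225 ± 5.83 CPM. Of the counts of the 7 genes, the SRPK pair took between 70.0% and 71.6% in the DMSO libraries, between 24.8% and 28.7% under PdB and between 40.0% and 42.0% at recovery. The CLK genes took between 19.8% and 21.4%, 41.6% and 46.8%, and 40.1% and 41.1%, and DYRK1A between 8.57% and 8.72%, 27.7% and 29.8%, and 17.9% and 19.0%. SRPK transcripts thus made up most of the counts in every DMSO library and in no other library. These shares are of counts, which grow with transcript length, and a longer gene takes a larger share at equal numbers of molecules.

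**Figure D3:**
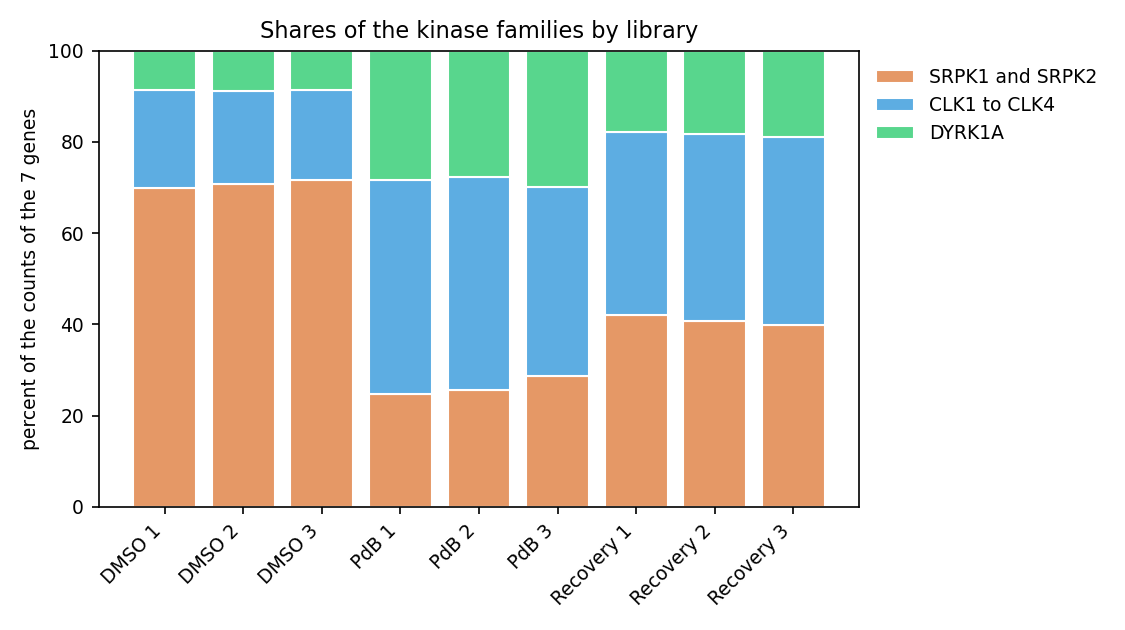
Percent of the counts of the 7 genes (vertical axis) that fell in SRPK1 and SRPK2, in CLK1 to CLK4 and in DYRK1A, for each of the 9 libraries; each bar sums to 100. The SRPK part goes from 70.8% on average in DMSO to 26.4% under PdB and 40.9% at recovery.

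Per length of the longest coding transcript, SRPK1 led in DMSO at 71.3 ± 1.36 RPKM (CPM divided by length in kilobases), followed by CLK2 at 17.9 ± 1.61. SRPK2 at 15.2 and CLK1 at 14.2 RPKM overlapped between libraries, and CLK3 at 12.1, CLK4 at 4.71 and DYRK1A at 2.66 RPKM followed, each apart from the next. Under PdB CLK1 led at 39.7 ± 4.23 RPKM and lay apart from CLK3 at 31.7, while CLK3, CLK2 at 29.8 and SRPK1 at 23.2 overlapped each with the next. SRPK2 at 11.5 and CLK4 at 10.8 also overlapped, and DYRK1A came last at 9.23 RPKM. At recovery SRPK1 at 35.2 and CLK3 at 34.9 RPKM overlapped at the top, and CLK2 at 30.03, CLK1 at 22.3, SRPK2 at 17.1, CLK4 at 8.81 and DYRK1A at 5.76 followed, each apart from the next. DYRK1A, with the largest change, was therefore the lowest of the 7 per length in all 3 groups by this measure. The length used was 17562 bases for DYRK1A, and ran from 2026 for CLK1 to 4592 for SRPK1 among the others. Gene counts do not show which transcript the cells used, so this rank does not show that DYRK1A was the scarcest. The order depends on the length used: with the merged exons of all annotated transcripts, SRPK1 led in DMSO at 48.9 RPKM and at recovery at 24.2, CLK2, SRPK1 and CLK1 overlapped at the top under PdB at 17.6, 15.9 and 15.5, and CLK4 came last in all 3 groups, overlapping CLK3 in DMSO.

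Ratios of 2 genes within a library do not depend on the scaling between libraries. SRPK1 held 5.83 counts per SRPK2 count in DMSO, 2.5 under PdB and 2.55 at recovery, as geometric means. The log2 ratio was 2.55, 2.5 and 2.58 in the DMSO libraries, 1.34, 1.32 and 1.3 under PdB, and 1.37, 1.35 and 1.33 at recovery. The ratio thus dropped by 1.22 and stayed at the lower level, with a difference of 0.03 between recovery and PdB. The exact two-sided permutation p of the drop was 0.1, the smallest that 3 libraries against 3 allow, or 0.15 after adjustment over 15 ratio tests.

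The CLK1 to CLK2 log2 ratio went the other way and came back. It averaged -0.43 ± 0.14 in DMSO, 0.32 ± 0.14 under PdB and -0.53 ± 0.052 at recovery (SD, n = 3). CLK1 thus outnumbered CLK2 in counts under PdB and not in DMSO or at recovery, and no PdB library overlapped the other groups (exact permutation p = 0.1 for both differences). The CLK2 to CLK3 log2 ratio averaged 0.29 ± 0.20 in DMSO, -0.37 ± 0.18 under PdB and -0.49 ± 0.077 at recovery. It was lower in every PdB and every recovery library than in every DMSO library (exact permutation p = 0.1), and PdB and recovery overlapped. The CLK1 to CLK4 log2 ratio averaged 1.25 ± 0.10, 1.53 ± 0.20 and 1.00 ± 0.076, and its DMSO and PdB libraries overlapped (exact permutation p = 0.2). At recovery it was lower in every library than in DMSO, by 0.25, and than under PdB, by 0.53 (exact permutation p = 0.1 for both). DYRK1A was set against DYRK1B, its closest relative, and their log2 ratio averaged 2.33 ± 0.13 in DMSO, 3.32 ± 0.056 under PdB and 2.25 ± 0.14 at recovery. Only the PdB libraries stood apart, above both other groups (exact permutation p = 0.1).

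**Figure D4:**
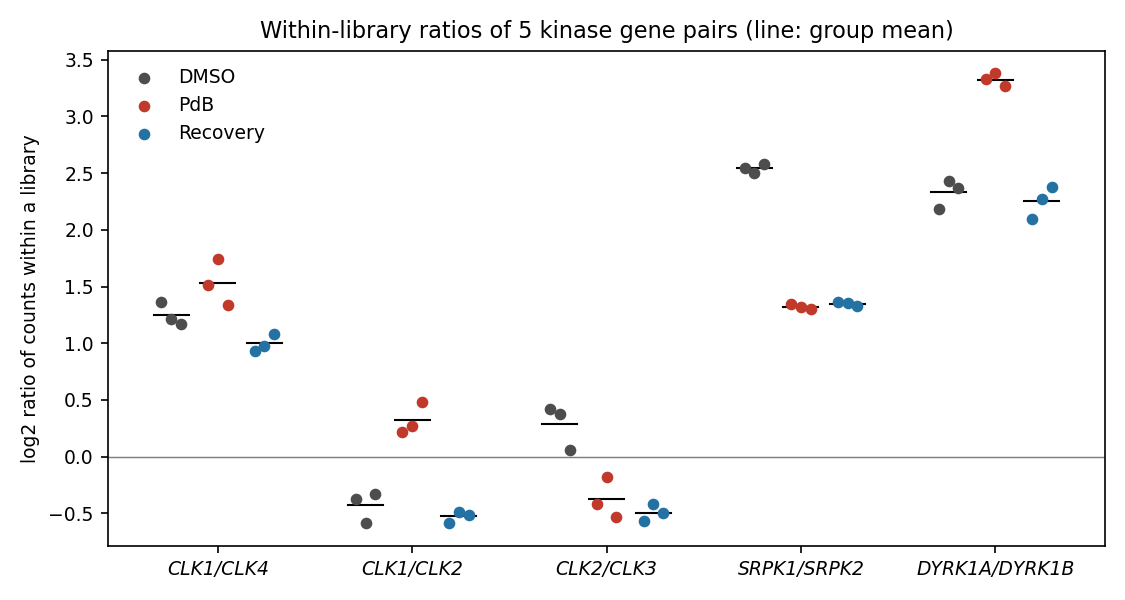
Log2 ratio of the counts of 2 kinase genes within each library (vertical axis) for 5 pairs; points are libraries, coloured by group, and the line is the group mean. The SRPK1 to SRPK2 ratio drops from 2.54 to 1.32 and stays at 1.35, and the CLK1 to CLK2 and DYRK1A to DYRK1B ratios stand high only under PdB among the 3 groups.

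The promoters of CLK1, CLK4 and SRPK1 are shown because CLK1 and CLK4 rose and partly returned while SRPK1 fell. DYRK1A also rose and partly returned, and its promoter is not shown. Each is the 250 bases before the RefSeq start on GRCh38.p14, 5′ to 3′ on the gene's minus strand. CLK1 is at chr2:200864659-200864908, CLK4 at chr5:178627051-178627300 and SRPK1 at chr6:35921099-35921348. The capitals mark TGACG, the core of the cAMP response element, and the E-box CACGTG, on either strand.
CLK1: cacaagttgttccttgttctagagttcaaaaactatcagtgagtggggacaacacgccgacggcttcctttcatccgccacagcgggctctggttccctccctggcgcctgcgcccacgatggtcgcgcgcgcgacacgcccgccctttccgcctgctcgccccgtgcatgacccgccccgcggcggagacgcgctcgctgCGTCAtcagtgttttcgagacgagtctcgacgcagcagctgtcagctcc
CLK4: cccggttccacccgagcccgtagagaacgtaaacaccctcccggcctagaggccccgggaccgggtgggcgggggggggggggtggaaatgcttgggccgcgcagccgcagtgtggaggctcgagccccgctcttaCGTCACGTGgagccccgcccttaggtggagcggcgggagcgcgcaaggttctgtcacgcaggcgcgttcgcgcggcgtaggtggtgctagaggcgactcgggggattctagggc
SRPK1: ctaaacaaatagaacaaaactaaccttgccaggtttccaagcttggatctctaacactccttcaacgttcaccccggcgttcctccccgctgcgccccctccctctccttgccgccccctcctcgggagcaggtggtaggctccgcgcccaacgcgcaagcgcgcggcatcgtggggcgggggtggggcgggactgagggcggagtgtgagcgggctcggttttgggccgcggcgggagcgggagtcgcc

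All 7 genes matched at least 1 RefSeq promoter entry, and only 1 entry per gene was searched, that with the most coding starts near it. CLK1 and CLK3 had 2 entries, SRPK2 4 and DYRK1A 6, so the matches below leave out their other promoters. TGACG was found in CLK1, beginning 49 bases before the start, and in CLK4, beginning 114 bases before it, and 21.2% of 35116 promoters of this length hold it. CACGTG was found in CLK2 and CLK4, where it overlaps TGACG by 2 bases, and 6.34% of promoters hold it. DYRK1A, which rose and partly returned as CLK1 and CLK4 did, held neither TGACG nor CACGTG. Any link of these letters to the changes was not tested. GGGCGG, the GC box, was found in all of the 7 but CLK3, with 6 matches in SRPK2, 4 in SRPK1, 3 in DYRK1A and 2 each in CLK1, CLK2 and CLK4, and 42.6% of promoters hold it. The AP-1 site TGANTCA was found in none of the 7 and in 6.57% of promoters. Both strands were searched, and these matches describe letters only.

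Several genes lie across the kinase genes, and their reads could be counted with the kinase. The use of strand is not stated, and it would separate only genes on the opposite strand. A small RNA gene of the Y RNA family, RF00019, lies in intron 1 of CLK1 on the same strand. RF00019 had 2, 6 and 9 counts in DMSO, 89, 77 and 80 under PdB and 32, 45 and 26 at recovery, so all PdB libraries stood above all others. The log2 change under PdB was 4.11 ± 0.53 (adjusted p = 7.6e-07, edgeR). RN7SKP70, a copy of the 7SK RNA gene in intron 2 of CLK4 on the same strand, had 50, 55 and 51 counts in DMSO, 7, 9 and 0 under PdB and 91, 113 and 115 at recovery. RN7SKP70 thus moved opposite to CLK4 under PdB, by -2.99 ± 0.56 (adjusted p = 7.8e-05, edgeR). Both RNA families have many near-identical copies in the genome, so the 2 values are uncertain. Reads of kinase transcripts that hold the intron could also be counted as these genes, since strand does not separate them. The part of such reads was not tested, so the values need not be changes of the small RNAs. CLK1 itself had 1690 to 5016 counts per library and CLK4 727 to 1582, so the counts of both small RNA genes are few beside them.

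KMT2E, a chromatin regulator on the strand opposite SRPK2, shares 3658 bases of span with it. Of the 3 coding transcripts of SRPK2 in the GENCODE basic set, 0 have an exon in the span of KMT2E. For CLK3 and EDC3, the next gene, it was 0 of 2. KMT2E averaged 76.8 CPM in DMSO, 258 under PdB and 121 at recovery, a rise of 1.75 ± 0.047 under PdB on the log2 scale while SRPK2 fell. EDC3, an mRNA decapping gene opposite CLK3 with 14857 shared bases, averaged 33.6, 41.0 and 72.2 CPM, and was higher at recovery than in DMSO by 1.10 ± 0.074 (adjusted p = 5.5e-11, edgeR). LHFPL5, opposite SRPK1, overlaps its exons in 2 of 2 coding transcripts of the GENCODE basic set, and 6 coding transcripts are annotated in all. LHFPL5 averaged 3.23 CPM in DMSO, 1.07 under PdB and 1.56 at recovery. Its log2 change was -1.59 ± 0.28 under PdB and -1.04 ± 0.27 at recovery against DMSO (adjusted p = 3.9e-05 and 0.0023, edgeR), beside -1.62 and -1.02 for SRPK1. Of the processed copies, CLK2P1 had at most 6 counts in a library, SRPK2P at most 2 and CLK3P2 none. The part of the copies and overlapping genes in the kinase values was not tested.

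Among genes outside the 7, the nearest in profile were found for each by the distance between centred log2 CPM over the 9 libraries. The search covered 8349 tested genes that averaged 10 CPM or more and passed a filter on names. That filter dropped clone, locus and antisense names and all symbols ending in P or in P with digits. It thus also left out coding genes such as CLASRP, and a nearer gene may be among those left out. They were ANAPC2 and CHD2 for CLK1, SETD5 and NKIRAS2 for CLK4, and YTHDF1 and KANSL1 for DYRK1A. YTHDF1, a reader of methylated mRNA, had 95, 351 and 216 CPM in DMSO, PdB and recovery, in steps like those of DYRK1A. BRD2 and ATXN1L were nearest to CLK3, and BRD2, a bromodomain protein, had 312, 787 and 891 CPM, again highest at recovery. MT-ND2, encoded in the mitochondrial genome, and ENTR1 were nearest to CLK2. DLAT was among the nearest to SRPK1 and AP5B1 among the nearest to SRPK2. DLAT, a subunit of the pyruvate dehydrogenase complex, had 125 CPM in DMSO, 39.0 under PdB and 60.6 at recovery. The nearest pair within the 7 was CLK1 and DYRK1A at a distance of 0.66, followed by CLK1 and CLK4 at 0.74. The distances of the outside neighbours ran from 0.15 to 0.28. Those neighbours were picked as the nearest of 8349 genes, so their smaller distances do not show that the kinases are unlike one another.

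The relatives of these kinases outside the 7 were listed as SRPK3, DYRK1B, DYRK2, DYRK3, DYRK4, HIPK1 to HIPK4 and PRPF4B. Under PdB 7 of 10 rose and 2 fell, with a median of 0.77. For this and the later lists, the shares of all genes tested serve as the measure. They were 31.9% higher and 38.1% lower under PdB against DMSO, and 30.7% and 30.5% at recovery against DMSO. From PdB to recovery they were 34.6% and 31.5%. DYRK2, a kinase of the p53 and proteasome pathways, rose the most, with 26.6 ± 2.14 CPM in DMSO and 106 ± 16.1 under PdB (log2 change 1.99 ± 0.095, adjusted p = 5.5e-12, edgeR). PRPF4B, the spliceosome's own kinase, followed, from 125 ± 2.96 to 477 ± 12.3 CPM. HIPK4 fell, with 13, 17 and 32 counts in DMSO and 0, 1 and 1 under PdB, too few for a firm fold.

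At recovery 5 of the 10 relatives were above DMSO and 3 below. HIPK3, a nuclear kinase of the same branch as DYRK1A, was the highest at 1.76 ± 0.058 and had gone from 45.6 to 114 and then 154 CPM. HIPK2, a kinase that acts on p53, was the lowest of those that passed, at -1.34 ± 0.061, with 277, 317 and 110 CPM. Between PdB and recovery 3 rose and 5 fell. PRPF4B fell the most, by 2.40 ± 0.046 to 90.5 CPM, below its DMSO level by 0.47. The largest rise that passed was that of DYRK4, at 0.45 ± 0.15 (adjusted p = 0.011, edgeR), which did not pass without PdB replicate 1 (adjusted p = 0.052) or without recovery replicate 1 (adjusted p = 0.074). DYRK1B rose in both steps, from 9.32 to 16.2 and then 21.3 CPM.

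The substrates were taken as the SRSF genes, and 11 of 12 could be tested, since SRSF12 was at or near 0. Under PdB 8 rose and 2 fell, with a median of 1.17, beside 31.9% and 38.1% of all genes tested. SRSF4, an SR protein with a long RS domain, rose the most, from 89.9 ± 3.26 to 311 ± 12.2 CPM (log2 change 1.79 ± 0.049). SRSF2, a speckle protein, went from 242 to 833 CPM and SRSF1, a founding SR protein, from 331 to 958. SRSF6 fell by 0.47 ± 0.059, the larger of the 2 falls, and SRSF5 rose by 0.24 ± 0.051, which did not pass with library totals (0.04, adjusted p = 0.43).

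At recovery 7 SRSF genes were below DMSO and 3 above, with a median of -0.33, while 6 of the 7 kinases were above. SRSF2 was the lowest at -1.13 ± 0.048, with 111 CPM, and SRSF1 at 264 CPM and SRSF4 at 69.4 CPM were also below DMSO. SRSF5 was the highest, at 0.38 ± 0.051. The 3 rises were 1 without DMSO replicate 3 and 1 without recovery replicate 2. From PdB to recovery 8 fell and 2 rose. SRSF2 fell by 2.91 ± 0.050 and SRSF10, whose product represses splicing when dephosphorylated, rose by 0.26 ± 0.052. The 2 rises were 1 without PdB replicate 3 and 1 without recovery replicate 2.

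**Figure D5:**
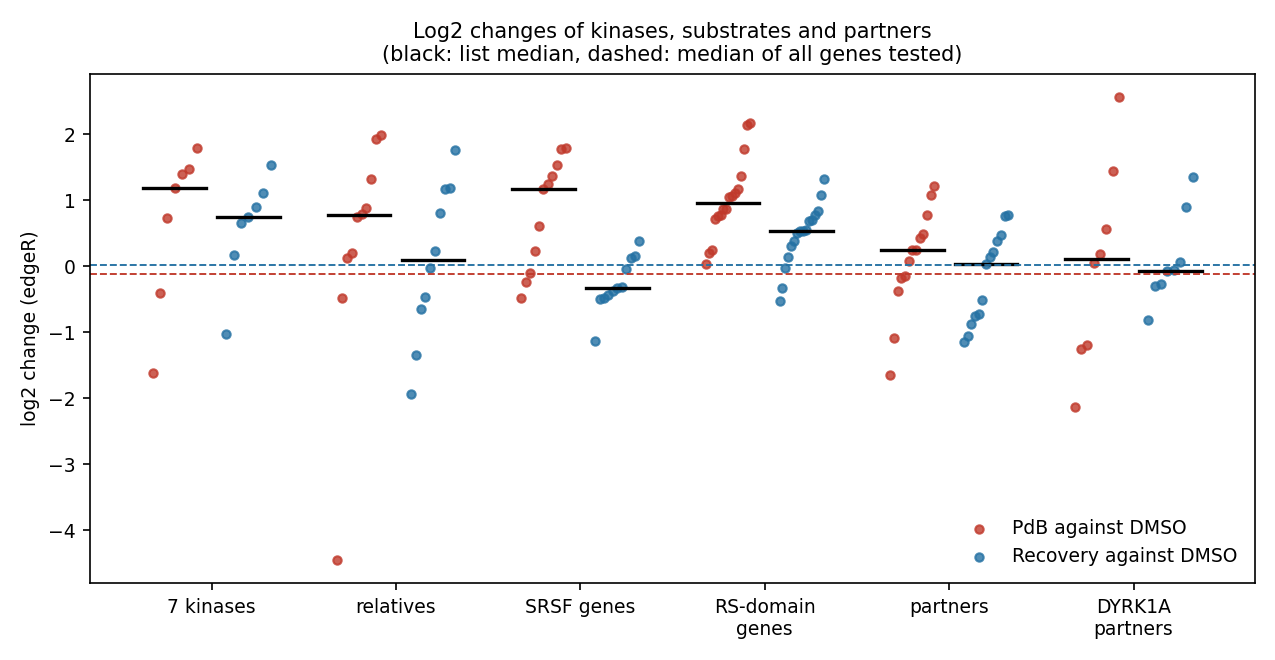
Fitted log2 change (vertical axis) of each tested gene of 6 lists in PdB against DMSO and in recovery against DMSO; points are genes, the black line is the list median and the dashed lines are the medians of all genes tested. The SRSF genes have a median of 1.17 under PdB and -0.33 at recovery, and the 7 kinases 1.19 and 0.75.

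Other proteins with RS domains formed a list of 16 genes. Of these 15 rose under PdB and none fell, with a median of 0.96, beside 31.9% and 38.1% of all genes tested. SON, the scaffold of nuclear speckles, rose by 2.17 ± 0.079 on the log2 scale (adjusted p = 1.6e-12, edgeR), with 301 ± 12.2 CPM in DMSO and 1350 ± 184 under PdB. SRRM1, an SR-related coactivator of exon joining, went from 160 to 707 CPM and LUC7L2, a U1 snRNP partner, from 159 to 545. CLASRP, a protein that binds CLK4, rose by 0.87 ± 0.072. With library totals 13 rose and 1 fell.

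At recovery 12 of the 16 were above DMSO and 2 below, with a median of 0.53. SON stood 0.69 above DMSO and SRRM1 0.53 above. The largest rise was U2AF1 at 1.32 ± 0.20, on only 1.52 to 3.79 CPM, and U2AF1 has a near-identical annotated copy, so its value is uncertain. TRA2A, a regulator of exon inclusion, was the lowest at -0.53 ± 0.054. From PdB to recovery 12 fell and 2 rose. SRRM1 fell by 1.61 ± 0.042, and ACIN1, an apoptosis-linked partner of the exon junction, rose by 0.64 ± 0.054.

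The import, chaperone, kinase and phosphatase partners were 13 genes, of which 7 rose and 5 fell under PdB, with a median of 0.24. Of all genes tested 31.9% rose and 38.1% fell, so the falls of this list were near the share of all genes. TNPO3, the importer of phosphorylated SR proteins, fell the most. It averaged 133 ± 4.31 CPM in DMSO, 42.5 ± 2.96 under PdB and 137 ± 4.0 at recovery. TNPO3 fell by 1.65 ± 0.056 under PdB, rose by 1.69 ± 0.056 afterwards (adjusted p = 5.5e-16 and 7.4e-16, edgeR), and differed by 0.04 ± 0.054 from DMSO at recovery (adjusted p = 0.58). The importer was thus low in the same group in which SRPK1 was lowest, and unlike SRPK1 it was near DMSO at recovery. PPP2CA, the catalytic subunit of phosphatase 2A, rose the most, from 215 to 501 CPM (1.22 ± 0.045).

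At recovery 6 partners were above DMSO and 6 below. AHSA1, a cochaperone of HSP90, was the highest at 0.78 ± 0.048. AKT2 stood at -1.05 ± 0.050 and AKT1 at -0.88 ± 0.051, and the AKT kinases bind and activate SRPK1. From PdB to recovery 2 rose and 10 fell, and the largest fall was that of AKT2, 0.88 ± 0.050. The 5 falls under PdB were 3 with RLE or upper-quartile scaling, with DESeq2, with a mean of at least 50 counts or with only the 6 libraries compared.

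Of 8 DYRK1A partners and substrates, 4 rose and 3 fell under PdB, with a median of 0.12. Here too the falls were near the 38.1% of all genes tested, of which 31.9% rose. RCAN1, an inhibitor of calcineurin that DYRK1A phosphorylates and that lies on the same chromosome arm, rose the most. RCAN1 averaged 32.7 ± 1.15 CPM in DMSO, 194 ± 17 under PdB and 83.8 ± 5.28 at recovery, a log2 change of 2.57 ± 0.067 under PdB and 1.36 ± 0.065 at recovery. NFATC2, a transcription factor whose export from the nucleus DYRK1A promotes, fell the most, from 56.8 to 13.0 CPM (-2.12 ± 0.080), and was the lowest at recovery, with 32.3 CPM (-0.81 ± 0.075).

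At recovery 2 of the 8 were above DMSO and 3 below. The 2 rises were 1 without DMSO replicate 1, 1 without DMSO replicate 2 and 1 without recovery replicate 3. From PdB to recovery 3 rose and 5 fell. NFATC1 rose by 2.09 ± 0.34 on low levels of 0.880 and 3.74 CPM, and RNF169, a ubiquitin-binding protein of DNA breaks bound by DYRK1A, fell by 1.5 ± 0.056 to 50.7 CPM. The genes of all 5 lists were chosen by known role, and their direction beside the kinases is a description with no test of the list.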

How the data were processed

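RNA-seq of polyadenylated RNA from MDA-MB-231 cells gave 9 libraries, 3 per group, made with the Universal Plus mRNA-Seq kit per the labels. The authors deposited whole-number read counts for 60708 genes, not normalised. The submitters' processing notes name the hg38 build, featureCounts 2.0.3, STAR 2.7.9a, fastp 0.23.2, DESeq2 1.30.0 and Picard. How each was set, the annotation release, strand, and what was done with duplicates and multi-mapping reads are not stated in these notes or labels. A symbol was found for 60463 gene IDs.

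The filterByExpr filter of edgeR kept 20812 genes. Scaling was by TMM (mean factors 1.03, 0.898 and 1.08 in DMSO, PdB and recovery). The quasi-likelihood test was run two-sided with edgeR 4.0.16 in R 4.3.3 on all 9 libraries, with Benjamini-Hochberg adjustment over all genes at 0.05. The fit gave a common biological variation (BCV) of 0.111. Total counts ran from 56389689 to 67047079, and no molecular identifiers are named, so reads need not stand for separate molecules. No 2 libraries of a group agreed within counting noise (chi-square per degree of freedom 4.98 to 26.0). Ratios within a library used a prior count of 0.5 and exact two-sided permutation tests. RPKM were computed from CPM and GENCODE 29 lengths, with the longest coding transcript taken from its basic set. Some gene IDs of the counts, such as those of EDC3 and KMT2E, carry later versions than in GENCODE 29. Lengths and transcript tallies thus come from another release than the counts. Coding bases and gene spans came from GENCODE 29 (GRCh38) and promoters from RefSeq. The script was tested on simulated data. As alternatives, scaling was done with library totals, RLE or upper quartiles, the filter was dropped or set to an average of 50 counts, the threshold was set to 0.01, DESeq2 1.42.0 was used, the fit was limited to the 6 libraries at issue, a replicate block was added, single libraries were omitted, ratios took a prior count of 2 and, as a choice made after the data were seen, RPKM took another length. Figures used Python 3.11.15 and matplotlib 3.10.9.

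The 7 genes and the lists were chosen with earlier results of these data known. Besides the 7, the text names at least the largest rise and fall of each list per comparison, the 2 genes nearest each kinase in profile, and annotated copies and overlapping genes. A few genes that this rule names are not reported here.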

Additional observations from a re-analysis of the deposited data

How the results depend on the processing

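All 7 kinases kept their direction and call in PdB against DMSO under all 18 alternatives, and so did 6 of the 7 in recovery against DMSO. SRPK2 at recovery against DMSO ranged from 0.16 to 0.25 and did not pass at a threshold of 0.01 (0.18, adjusted p = 0.012). Between recovery and PdB the direction of CLK2 is not settled: its log2 change was -0.043 with RLE, -0.064 with upper-quartile scaling, -0.076 with a mean of at least 50 counts, -0.043 with DESeq2 and 0.28 with library totals (adjusted p = 0.017). Leaving out 1 library in turn gave CLK2 values from -0.13 to 0.12 there. CLK3 between recovery and PdB passed with library totals (0.41), with no low-count filter (0.16, adjusted p = 0.028) and with the replicate block (0.14, adjusted p = 0.049), and ranged from 0.067 to 0.22 with 1 library left out. CLK4 between recovery and PdB did not pass with library totals (-0.023). The number of the 7 higher at recovery than under PdB was 4 with library totals, against 2. The cause of these changes was not tested.

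The median of all genes in PdB against DMSO was -0.11 with TMM, 0.04 with upper-quartile scaling and -0.31 with library totals, so log2 changes shift by that much with the scaling. Deviations of same-numbered libraries of different groups correlated between -0.0092 and 0.037, and those of different-numbered libraries between -0.043 and 0.020. Any pairing by replicate number was thus weak, and its absence is not shown. With the replicate block 14622, 12922 and 13860 genes passed in the 3 comparisons, against 14575, 12733 and 13748 without it, and CLK3 was the only kinase whose call changed. With 3 libraries per group, no ratio test could reach 0.05, and the uncalled differences of CLK2 and CLK3 do not show equal levels. Among the SRSF genes the falls under PdB were 1 with upper-quartile scaling or a mean of at least 50 counts, the rises at recovery against DMSO were 1 at a threshold of 0.01, and the rises from PdB to recovery were 1 with RLE, upper-quartile scaling, DESeq2, a mean of at least 50 counts or a threshold of 0.01. The falls of the relatives under PdB were 1 with a mean of at least 50 counts. The rises of DYRK1A partners at recovery against DMSO were 1 at a threshold of 0.01. Of 98 log2 changes of list genes whose values the text does not give, 20 changed sign under at least 1 alternative, among them 5 that had passed the test.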
